A study of Mus musculus with 8 samples.

Results

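The AP-1 transcription factors Fos, Fosb, Fosl1, Fosl2, Jun, Junb, Jund, Atf3, Batf3 and Maff were examined in mouse lymphatic endothelial cells (SV-LECs) exposed to TGFβ1. The 10 genes were taken by symbol from a count table of 55471 genes, and each symbol matched 1 row. SV-LECs are a single SV40-immortalized line derived from mesenteric adventitial tissue, and both groups shared this background and the same serum-containing medium. One group was left without treatment (untreated) and the other received 10 ng/ml TGFβ1 for 72 h (TGFβ1), with 4 libraries of poly(A) RNA per group and 8 in all. The study describes the 4 samples of a group as technical replicates, so p-values refer to the spread between libraries and not to independent cultures. These are bulk samples, and fewer cells of a kind cannot be told apart from less RNA per cell.

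AP-1 is a family of dimers of basic leucine zipper (bZIP) proteins. FOS proteins cannot pair with themselves and bind DNA as partners of JUN proteins, which can also pair among themselves. ATF proteins and BATF proteins pair with JUN proteins and shift the choice of DNA site, while the small MAF proteins lack an activation domain and pair with other bZIP factors. Many AP-1 genes are immediate-early genes, which respond within minutes to growth factors and stress through MAP kinases and serum response factor, and AP-1 acts together with SMAD proteins at many TGFβ target genes.

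Of the 10 AP-1 genes, 5 were called higher after TGFβ1 (Fos, Fosb, Fosl1, Jun and Junb), 3 were called lower (Fosl2, Atf3 and Maff) and 2 were not called (Jund and Batf3). Calls were made with edgeR's likelihood ratio test at a false discovery rate (FDR) under 0.05 over all 13818 genes tested, and all 10 AP-1 genes passed the filter on low counts. Treatment changed much of the transcriptome: 75.6% of the genes tested were called, 37.6% as higher and 38% as lower, so 8 calls among 10 genes lies close to the background. The groups did not overlap for 5 of the 10 AP-1 genes, Fos, Fosb, Fosl1, Fosl2 and Atf3, against 69.8% of all genes tested. The median log2 fold change was 0.06 over the AP-1 genes and -0.01 over all genes tested. The exact two-sided permutation test of 4 against 4 libraries cannot go below 0.0286, and these same 5 genes reached that value.

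The 10 genes differed in the size of their change. Fosl1 changed the most, and 1.33% of all genes tested had a larger absolute log2 fold change. For Fosb that share was 10.2%, for Junb 22.1%, for Fosl2 27.1% and for Fos 28.6%. The other 5 AP-1 genes were nearer to the middle of the distribution, and between 49% and 75.1% of genes had larger absolute changes.

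**Figure D1:**
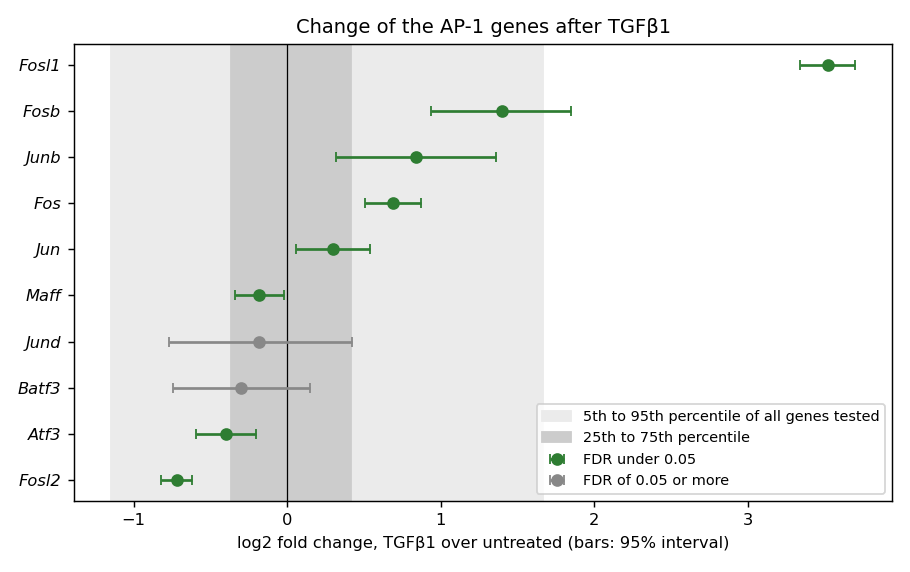
Log2 fold change of TGFβ1 over untreated SV-LECs for the 10 AP-1 genes, with 95% confidence intervals from edgeR. Fosl1 stands apart at 3.52, Fosl2 lies at -0.72, and the intervals of Jund and Batf3 include 0.

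The promoters of Fos, Jun, Junb and Maff are shown because each holds letters of a site that bZIP proteins bind, and because these genes represent the FOS, JUN and MAF branches. They are the 250 bases before an annotated transcription start, read 5′ to 3′ on the strand of the gene, from RefSeq on GRCm38.p6. Capitals mark TGACNTCA or TGACG on either strand; these overlap in the Maff sequence, where TGACGTCA holds both.
Fos, chr12:85473640-85473889, plus strand: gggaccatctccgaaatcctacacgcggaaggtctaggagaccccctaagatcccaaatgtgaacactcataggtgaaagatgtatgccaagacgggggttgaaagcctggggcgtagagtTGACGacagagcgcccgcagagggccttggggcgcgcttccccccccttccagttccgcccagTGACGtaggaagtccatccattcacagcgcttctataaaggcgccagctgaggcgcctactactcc
Jun, chr4:95052223-95052472, minus strand: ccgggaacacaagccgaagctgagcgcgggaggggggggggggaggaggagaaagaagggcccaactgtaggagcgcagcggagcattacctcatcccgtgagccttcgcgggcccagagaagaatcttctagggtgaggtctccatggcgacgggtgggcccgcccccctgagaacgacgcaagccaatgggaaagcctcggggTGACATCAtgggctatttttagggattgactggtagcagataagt
Junb, chr8:84978749-84978998, minus strand: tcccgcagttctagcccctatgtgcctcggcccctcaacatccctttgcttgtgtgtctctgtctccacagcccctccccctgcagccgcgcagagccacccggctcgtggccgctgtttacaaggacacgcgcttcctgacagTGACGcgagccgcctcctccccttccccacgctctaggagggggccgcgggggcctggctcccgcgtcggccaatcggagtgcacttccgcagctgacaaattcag
Maff, second start site, chr15:79347270-79347519, plus strand: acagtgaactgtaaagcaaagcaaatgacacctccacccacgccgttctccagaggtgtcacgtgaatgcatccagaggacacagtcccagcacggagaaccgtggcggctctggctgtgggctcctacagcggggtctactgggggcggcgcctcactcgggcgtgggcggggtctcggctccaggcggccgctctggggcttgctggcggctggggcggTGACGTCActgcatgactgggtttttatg

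None of these windows overlaps an annotated exon in GENCODE M21. The first 3 lie upstream of their gene and the Maff window lies in the first intron of the longest Maff transcript model. RefSeq promoters were found for 9 of the 10 AP-1 genes, in 11 windows because Maff has 3 start sites. Fosl1 had no entry. The search covered TGANTCA, the core of the AP-1 site, TGACNTCA, which resembles the cyclic AMP response element, and TGACG, which is part of that element. Among 32851 mouse promoters of the same length, 6.75% held TGANTCA, 7.49% held TGACNTCA and 17.8% held TGACG, each on either strand.

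No window of the AP-1 genes held TGANTCA. In the Jun promoter TGACATCA began 45 bases before the start. In the Maff promoters TGACGTCA began 29 bases before the second start and TGACATCA began 45 bases before the third, which also held TGACG on the opposite strand at 122 bases. The Fos promoter held TGACG at 129 and at 66 bases before the start, the Fosb promoter at 60 and the Junb promoter at 106. The Atf3 promoter held it on the opposite strand, 7 bases before the start. The windows of Fosl2, Jund and Batf3 and the first Maff window held none of the 3 motifs. The Jund window ended at chr8:70697738, while the Jund gene model starts at 70698949, so the bases next to that gene were not searched. Genes with a match were called in both directions, higher for Fos, Fosb, Jun and Junb and lower for Atf3 and Maff.

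Fosl1 encodes FRA-1, a FOS protein without the strong activation domain of FOS that is often found in migrating cells. Its level was 4.0, 3.76, 3.8 and 3.96 CPM (read counts scaled to the normalized library size) in untreated libraries 1 to 4, and 42.7, 45.7, 45 and 44.3 CPM in TGFβ1 libraries 1 to 4. Every treated library lay far above every untreated library, and the libraries of a group were nearly equal. The mean rose from 3.88 ± 0.118 to 44.4 ± 1.28 CPM (SD, n = 4 each), a log2 fold change of 3.52 with an SE of 0.0901, or 11.5-fold. The likelihood ratio statistic was 2157, and the FDR of edgeR's quasi-likelihood test was 9.5e-15. The counts behind these values were between 78 and 100 per untreated library and between 789 and 1141 per treated library.

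Fosl1 lies at chr19:5447547-5455946 on the plus strand, and 57.2% of its exonic bases (1163 of 2033) are also exonic in Ccdc85b, a gene on the opposite strand. The libraries were made with a stranded kit, but whether the counting used strand is not given in the sources used here. Ccdc85b had 13.8, 8.53, 6.11 and 5.53 CPM in the untreated libraries and 4.76, 5.99, 11.2 and 15.5 CPM in the treated libraries. Its groups overlapped, its log2 fold change was 0.14 (SE 0.338, edgeR FDR 0.71), and its order among the libraries was not that of Fosl1.

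Fosl2 encodes FRA-2, the relative of FRA-1, and went in the opposite direction. Its level was 536, 514, 462 and 473 CPM in the untreated libraries and 303, 294, 300 and 308 CPM in the TGFβ1 libraries. All treated libraries were below all untreated ones. The mean fell from 496 ± 34.8 to 301 ± 5.73 CPM (SD, n = 4 each), a log2 fold change of -0.72 (SE 0.0504, edgeR FDR 4.78e-45), which is 1.65-fold lower. Fosl2 lies at chr5:32135801-32157842 on the plus strand.

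Fos encodes the founding member of the family, whose RNA is short-lived and rises briefly after stimulation. It was measured at 8.24, 8.34, 8.04 and 7.71 CPM in untreated libraries and at 12.3, 14.5, 13.6 and 12 CPM in TGFβ1 libraries. The groups did not overlap. The mean rose from 8.08 ± 0.278 to 13.1 ± 1.15 CPM (SD, n = 4 each), 1.61-fold, with a log2 fold change of 0.69 (SE 0.0937, edgeR FDR 4.1e-13). Fos lies at chr12:85473890-85477273 on the plus strand.

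Fosb, a relative of Fos that also belongs to the early response, had the lowest level of the FOS family. It was counted 20, 16, 14 and 10 times in untreated libraries and 30, 37, 43 and 40 times in TGFβ1 libraries. These counts corresponded to 0.964, 0.601, 0.611 and 0.507 CPM and to 1.62, 1.8, 2.12 and 1.55 CPM. The treated libraries were all higher, at a depth of few reads. The mean rose from 0.671 ± 0.201 to 1.77 ± 0.251 CPM (SD, n = 4 each), 2.63-fold, with a log2 fold change of 1.40 and a 95% confidence interval of 0.94 to 1.85 (edgeR FDR 7.89e-10). Fosb lies at chr7:19302696-19310051 on the minus strand.

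**Figure D2:**
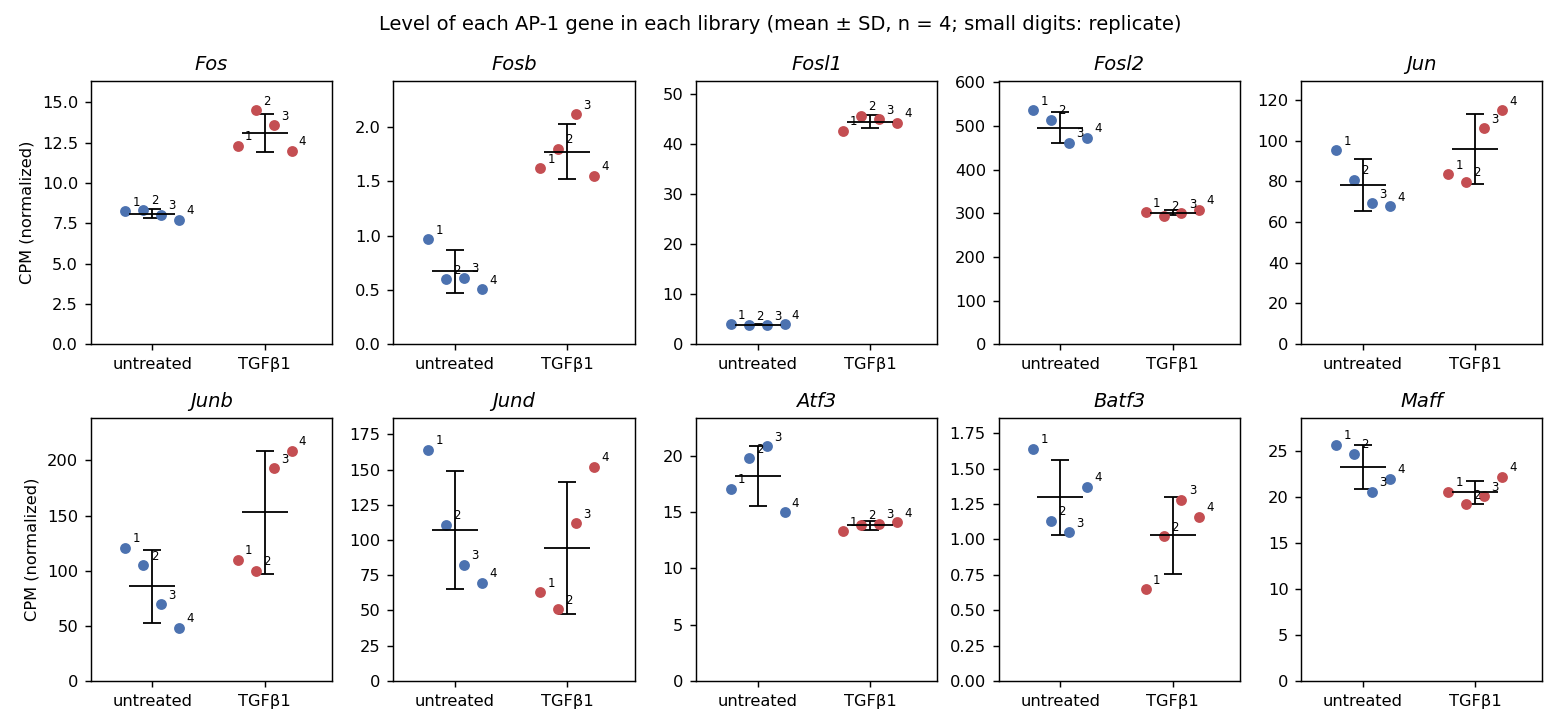
Level of each AP-1 gene in CPM on a linear axis, with 1 point per library and bars at the group mean ± SD, for 4 untreated and 4 TGFβ1 libraries. The points of Fosl1 and Fosl2 lie close together within each group and apart between groups, while those of Junb and Jund spread widely in both.

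Levels of different genes were compared as CPM per kilobase of exonic length. Untreated SV-LECs held mostly Fosl2, at 51.3 ± 3.6 CPM per kilobase, while Fos was at 3.44 ± 0.118, Fosl1 at 1.91 ± 0.058 and Fosb at 0.107 ± 0.0322 (SD, n = 4). After TGFβ1, Fosl2 was at 31.1 ± 0.592, Fosl1 at 21.8 ± 0.629, Fos at 5.56 ± 0.49 and Fosb at 0.284 ± 0.0403 CPM per kilobase. In untreated cells Fos was above Fosl1 in every library, and in treated cells Fosl1 was above Fos in every library. The sum over the FOS family was 56.7 ± 3.73 CPM per kilobase in untreated and 58.8 ± 0.698 in treated libraries, with ranges of 53.1 to 61 and 57.8 to 59.3 that overlapped. This near-equal sum depends on the scaling by length, since Fosl2 has 9680 exonic bases and Fosl1 2033. In CPM without length the FOS sum was lower after TGFβ1, at 509 ± 35.2 CPM in untreated and 361 ± 3.97 CPM in treated libraries, with ranges of 474 to 549 and 356 to 366 that did not overlap.

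The makeup of the FOS family differed between the groups on both scales. Per kilobase, Fosl2 made up 90.4 ± 0.418% of the FOS family level in untreated libraries and 52.9 ± 1.38% in treated ones. The share of Fosl1 was 3.37 ± 0.216% in untreated and 37.1 ± 0.657% in treated libraries. Without scaling by length the shares were 0.764% and 12.3% for Fosl1 and 97.5% and 83.6% for Fosl2, in the same directions. Per kilobase, the share of Fos was 6.07 ± 0.284% and 9.45 ± 0.765%. In CPM, the ratio of Fosl1 to Fosl2 was 0.00784 ± 0.000533 in untreated and 0.147 ± 0.0064 in treated libraries.

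**Figure D3:**
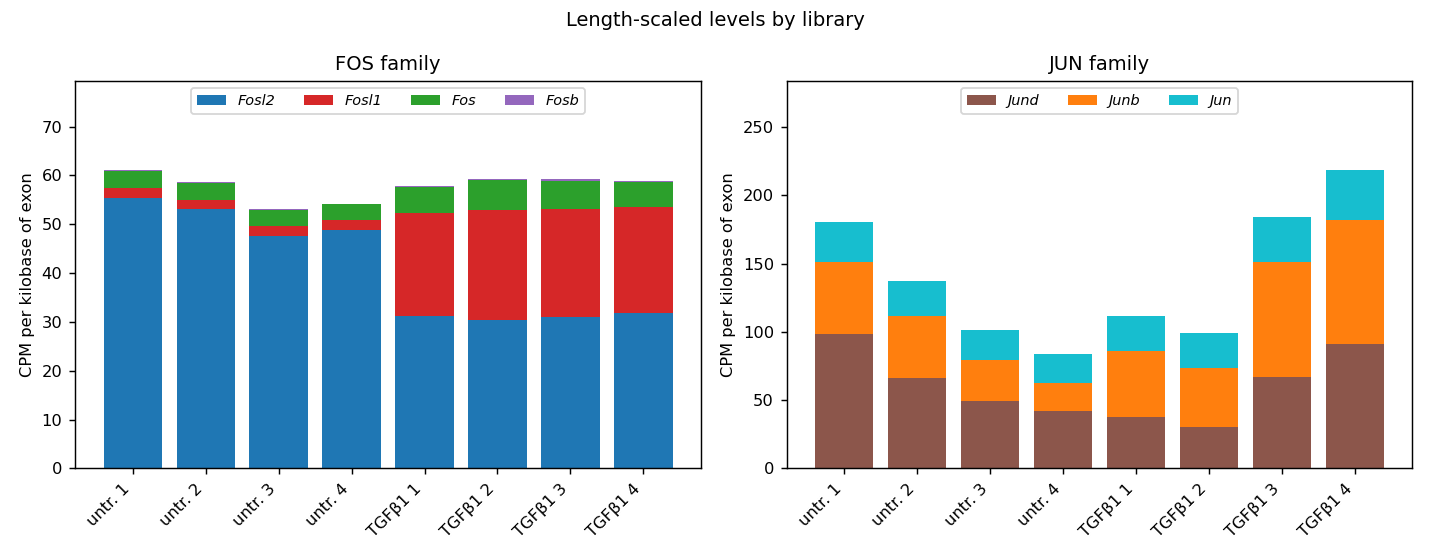
Length-scaled level (CPM per kilobase) of the members of the FOS and JUN families in each of the 8 libraries, stacked by gene. The FOS sum is between 53.1 and 61 in all libraries while its Fosl1 segment is larger after TGFβ1, and the JUN sum ranges from 84 to 218.

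Jun encodes the main activating JUN protein. Its level was 95.3, 80.8, 69.3 and 67.9 CPM in untreated libraries and 83.5, 79.7, 106 and 115 CPM in TGFβ1 libraries. Untreated libraries 1 and 2 and treated libraries 1 and 2 lay in the same range, so the groups overlapped. The mean was 78.3 ± 12.7 CPM in untreated and 96.1 ± 17.3 CPM in treated libraries (SD, n = 4 each), with a log2 fold change of 0.30 (SE 0.122, edgeR FDR 0.0217). The call was lost with DESeq2 (FDR 0.101), and the two-sided exact permutation p was 0.143. Leaving out untreated library 3 or 4, or TGFβ1 library 3 or 4, also ended the call, at FDRs up to 0.116 by edgeR, with log2 fold changes between 0.20 and 0.25. Jun is a gene of 1 exon at chr4:95049034-95052222 on the minus strand.

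Junb encodes a JUN protein that can restrain JUN and is an early target of TGFβ. It had 121, 105, 69.4 and 48.1 CPM in untreated libraries and 110, 100, 193 and 209 CPM in TGFβ1 libraries. TGFβ1 libraries 1 and 2 were within the untreated range, while TGFβ1 libraries 3 and 4 were above it. The mean rose from 85.8 ± 33 to 153 ± 56 CPM (SD, n = 4 each), 1.79-fold, with a log2 fold change of 0.84 and a 95% confidence interval of 0.32 to 1.36 (edgeR FDR 0.00271). The two-sided exact permutation p was 0.143. With 1 library left out the log2 fold change was between 0.64 and 1.04, and the call held in all 8 such fits (edgeR FDR of at most 0.0201). Junb lies at chr8:84974484-84978718 on the minus strand.

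Jund encodes the JUN protein found in resting cells of most tissues. Its levels were 164, 111, 82.4 and 69.7 CPM in untreated libraries and 63.1, 50.7, 112 and 152 CPM in TGFβ1 libraries. The groups covered nearly the same range. The mean was 107 ± 41.9 CPM in untreated and 94.5 ± 46.7 CPM in treated libraries (SD, n = 4 each), with a log2 fold change of -0.18, a 95% confidence interval of -0.77 to 0.42 and an edgeR FDR of 0.603. The sign turned without untreated library 1 (0.10, FDR 0.748 by edgeR) and without TGFβ1 library 2 (0.03, FDR 0.924 by edgeR). Jund is a gene of 1 exon at chr8:70698949-70700616 on the plus strand.

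Per kilobase, Jund was the most abundant JUN gene in untreated libraries, at 64 ± 25.1 CPM per kilobase, ahead of Junb at 37.3 ± 14.3 and Jun at 24.6 ± 3.99 (SD, n = 4). In treated libraries Junb was at 66.6 ± 24.3, Jund at 56.7 ± 28 and Jun at 30.1 ± 5.42 CPM per kilobase, and the values of Junb and Jund overlapped. The JUN sum was 126 ± 42.8 and 153 ± 57.3 CPM per kilobase. The libraries in which Junb was high were also those in which Jund was high. The ratio of Junb to Jund in CPM was 0.736, 0.945, 0.842 and 0.69 in untreated libraries and 1.75, 1.97, 1.73 and 1.37 in TGFβ1 libraries. This ratio did not overlap between groups, with means of 0.803 ± 0.114 and 1.71 ± 0.247. The other JUN ratios in CPM did overlap. Junb to Jun ranged from 0.709 to 1.3 in untreated and from 1.25 to 1.82 in treated libraries. Jund to Jun ranged from 1.03 to 1.72 and from 0.637 to 1.32. Junb took 29.2 ± 3.39% of the JUN family level in untreated and 43.5 ± 1.67% in treated libraries, and Jund took 50.3 ± 2.79% and 35.7 ± 4.68%. The share of Jun was 20.4 ± 3.84% and 20.8 ± 4.18%.

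The JUN genes were among the most variable of all genes between libraries of one group. Among 9665 genes of at least 10 CPM on average, the median SD of log2 CPM within groups was 0.068. It was 0.643 for Jund, at rank 3 from the top, 0.573 for Junb, at rank 10, and 0.244 for Jun, at rank 141. For Fosl1 it was 0.0423. Between the lowest and highest library, Junb differed 2.51-fold among untreated and 2.09-fold among TGFβ1 libraries, and Jund 2.35-fold and 3-fold.

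Spread within groups was larger in genes of high GC content as a set, but was not limited to them. Jund has a GC content of 67.1%, Junb of 62.6% and Jun of 55.5%. The 299 genes with a GC content of at least 60% had a median within-group SD of 0.153, against 0.0669 for 9363 other genes. Their median deviation from the group mean, on the log2 scale, was 0.176, 0.0195, -0.0608 and -0.143 in untreated libraries 1 to 4 and -0.0745, -0.1489, 0.0861 and 0.1368 in TGFβ1 libraries 1 to 4. The other genes stayed within 0.0106 of 0. High-GC genes were thus high in untreated library 1 and TGFβ1 libraries 3 and 4 and low in untreated library 4 and TGFβ1 libraries 1 and 2, as were Jun, Junb and Jund. Cebpd, a bZIP gene at 51.1% GC, had an SD of 0.574, at rank 9. Its levels followed the order of Jund, at 130, 97.9, 64.7 and 54.5 CPM in untreated and 43.8, 34.2, 65.7 and 84 CPM in TGFβ1 libraries. Ccdc85b, at 54.4% GC and group means of 8.5 and 9.36 CPM, had an SD of 0.691.

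In a fit chosen after seeing the data, the slope of each library on GC content, centred within groups, was added as a covariate. The log2 fold changes stayed at 0.30 for Jun and 0.84 for Junb, with SEs of 0.0471 and 0.0735 in place of 0.122 and 0.266 (edgeR FDR 7.92e-10 and 2.44e-29). Jund was then called lower, at -0.22 (SE 0.0874 in place of 0.302, edgeR FDR 0.0147). The covariate was chosen after these genes had been seen to follow the high-GC genes across libraries. The smaller SEs restate that pattern, and these FDRs and the call of Jund are not independent support. What set the GC slope was not tested.

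**Figure D4:**
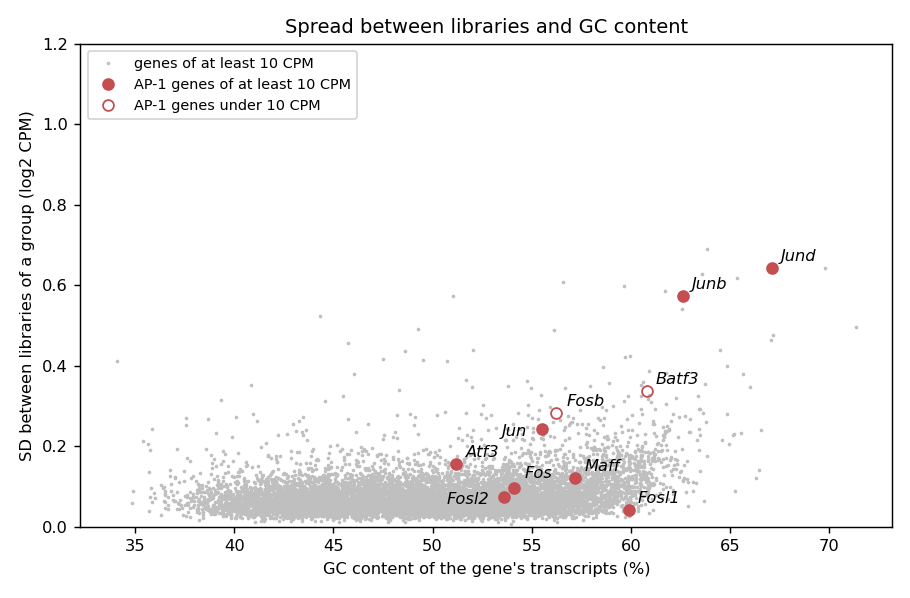
SD of log2 CPM between libraries of a group (y axis) against GC content of the transcripts in percent (x axis) for genes of at least 10 CPM in grey and the AP-1 genes in red, with open circles under 10 CPM. Jund and Junb lie at the upper right, and Fosl1, at 59.9% GC, has an SD of 0.0423.

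**Figure D5:**
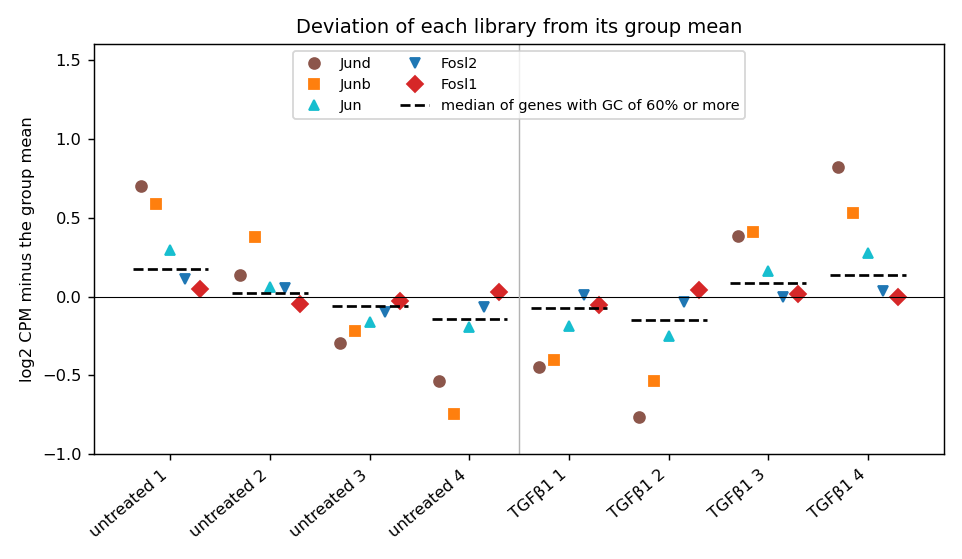
Deviation of each library from its group mean (log2 CPM) for 5 AP-1 genes, with dashed bars at the median of the 299 genes with a GC content of at least 60%. Jund, Junb and Jun deviate to the same side of 0 as the dashed bars in all 8 libraries, while Fosl1 stays near 0.

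Part of each JUN gene shares its bases with a gene on the opposite strand. Jund shares 52.6% of its exonic bases with Gm11175, an antisense gene counted between 3 and 36 times per library (log2 fold change 0.12, edgeR FDR 0.835). Junb shares 7.52% with Prdx2, which fell from 215 ± 8.01 to 154 ± 3.75 CPM (log2 fold change -0.48, SE 0.0424, edgeR FDR 1.25e-28). Jun shares 7.28% with Junos, which had between 5 and 15 counts per library and was not tested. If the counting did not use strand, reads in these shared bases could be counted for the wrong gene or for none. The levels of Jun, Junb and Jund, also per kilobase, would then be affected, and the same holds for Fosl1.

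Atf3 encodes a stress-induced factor that can repress its targets. Its level was 17.1, 19.8, 20.9 and 15.0 CPM in untreated libraries and 13.3, 13.9, 14.0 and 14.1 CPM in TGFβ1 libraries. All treated libraries were lower than all untreated ones, by a small margin for untreated library 4. The mean fell from 18.2 ± 2.69 to 13.8 ± 0.369 CPM (SD, n = 4 each), a log2 fold change of -0.40 (SE 0.101, edgeR FDR 0.00014), which is 1.32-fold lower. Atf3 lies at chr1:191170296-191218039 on the minus strand.

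Maff encodes a small MAF protein. It had 25.7, 24.7, 20.6 and 22.0 CPM in untreated libraries and 20.6, 19.2, 20.1 and 22.2 CPM in TGFβ1 libraries. The groups overlapped. The mean fell from 23.2 ± 2.36 to 20.5 ± 1.28 CPM (SD, n = 4 each), with a log2 fold change of -0.18 and a 95% confidence interval of -0.34 to -0.02 (edgeR FDR 0.0366). This call lay near the threshold: DESeq2 gave an FDR of 0.0578, and the call was lost in 5 of the 8 fits that leave out a library (untreated 1 or 2, or TGFβ1 1, 2 or 3, edgeR FDR of up to 0.128). Maff lies at chr15:79346621-79359076 on the plus strand.

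Batf3 encodes a factor best known from dendritic cells. It was counted 34, 30, 24 and 27 times in untreated and 12, 21, 26 and 30 times in TGFβ1 libraries, or 1.64, 1.13, 1.05 and 1.37 CPM and 0.649, 1.02, 1.28 and 1.16 CPM. The groups overlapped. The log2 fold change was -0.30 with a 95% confidence interval of -0.74 to 0.15 (edgeR FDR 0.224). Batf3 lies at chr1:191097847-191108945 on the plus strand. Per kilobase, Maff and Atf3 were at similar levels in untreated libraries, 8.96 and 8.44 CPM per kilobase, and Batf3 was at 0.811. The sum of these 3 genes was 18.2 ± 1.37 CPM per kilobase in untreated and 15 ± 0.642 in treated libraries.

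Most tested genes of other bZIP factors, listed here as possible dimer partners, were called lower at the RNA level. Of 17 tested among 20 listed, 11 were called lower, 3 were called higher and 3 were not called, with a median log2 fold change of -0.33. The shares over all genes tested were 38% lower and 37.6% higher, with a median of -0.01. Maf, which encodes the large MAF factor c-MAF, fell from 196 ± 12.8 to 70.3 ± 4.86 CPM (log2 fold change -1.48, SE 0.06, edgeR FDR 1.41e-129). Atf4 and Ddit3, of the integrated stress response, fell by 0.97 and 0.78 on the log2 scale (edgeR FDR 2.88e-95 and 5.5e-25). Mafk, the small MAF relative of Maff, went the other way, from 21.7 ± 0.892 to 63.1 ± 3.63 CPM (log2 fold change 1.54, SE 0.061, edgeR FDR 1.51e-140). Bach1, which represses targets together with small MAF proteins, rose by 0.41 and Atf7 by 0.17 on the log2 scale (edgeR FDR 5.8e-20 and 0.0141). The call of Atf7 was lost in 4 of 17 alternative fits. Among the genes called lower, Cebpd (log2 fold change -0.61, edgeR FDR 0.0343) lost its call in 7 of 17, the quasi-likelihood test and DESeq2 among them. Cebpb, at 67.2% GC, had 83.5, 66.7, 45.1 and 43.7 CPM in untreated and 25.8, 24.1, 42.3 and 47.9 CPM in TGFβ1 libraries, in the order of Jund among libraries (log2 fold change -0.77, edgeR FDR 0.0012).

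Of 16 immediate-early genes outside AP-1, 14 were called higher, none was called lower and 2 (Ier2 and Ier3) were not called, with a median log2 fold change of 0.66. Over all genes tested, 37.6% were called higher and 38% lower, with a median of -0.01. Btg2, an antiproliferative gene, rose from 90.9 ± 10.4 to 242 ± 14.6 CPM (log2 fold change 1.42, SE 0.0718, edgeR FDR 8.75e-83). Sgk1, a kinase gene, rose from 43.3 ± 4.11 to 83.3 ± 3.24 CPM (log2 fold change 0.95, SE 0.0641, edgeR FDR 4.99e-48). Egr3 and Nr4a3 had log2 fold changes of 1.59 and 1.23 (edgeR FDR 4.5e-05 and 0.000194) at mean levels under 1 CPM. Egr1, a zinc-finger factor induced alongside Fos, rose from 109 ± 8.24 to 155 ± 12.8 CPM (log2 fold change 0.51, SE 0.067, edgeR FDR 1.5e-13), and Myc from 72.2 ± 10.4 to 90.8 ± 4.43 CPM (log2 fold change 0.33, SE 0.0854, edgeR FDR 0.000193). Fos at 0.69 and Fosb at 1.40 lay within the range of these genes, from -0.02 to 1.59.

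Genes of the signalling chain to AP-1 moved both ways. Of 22 MAP kinase and serum response factor genes, 11 were called higher, 8 lower and 3 not, with a median log2 fold change of 0.11. Calls took 75.6% of all genes tested, 37.6% as higher and 38% as lower. Elk3, a ternary complex factor at the Fos promoter, rose from 74.5 ± 4.19 to 152 ± 4.49 CPM (log2 fold change 1.03, SE 0.0489, edgeR FDR 4e-97). Mrtfa, a coactivator of serum response factor, rose by 0.72 on the log2 scale (edgeR FDR 7.34e-39), and Srf itself by 0.44 (edgeR FDR 4.94e-08). The kinase genes Map2k4 and Map2k3 rose by 0.60 and 0.53 (edgeR FDR 1.45e-34 and 8.98e-30). Map3k1, upstream of JNK, fell from 16.2 ± 0.879 to 8.22 ± 0.358 CPM (log2 fold change -0.98, SE 0.0852, edgeR FDR 9.08e-31). Mapk3, which encodes ERK1, fell by 0.68, Map3k5 by 0.66 and Rps6ka3 by 0.61 on the log2 scale (edgeR FDR 1.47e-46, 7.93e-16 and 1.03e-43).

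Of 20 genes tested among 21 known from textbooks as AP-1 targets, 14 were called higher, 5 lower and 1 (Mmp13) not, with a median log2 fold change of 0.82. Over all genes tested, 37.6% were called higher and 38% lower, with a median of -0.01. All of these targets have other regulators as well, and binding of AP-1 was not measured here. Mmp9, a matrix metalloproteinase, had 4, 16, 11 and 8 counts in untreated and 320, 414, 286 and 419 counts in TGFβ1 libraries (log2 fold change 5.28, SE 0.259, edgeR FDR 5.78e-159). Mmp10 rose from 2.91 ± 0.38 to 14.6 ± 0.994 CPM (log2 fold change 2.32), Cd44, a hyaluronan receptor, from 83.4 ± 5.08 to 331 ± 13.6 CPM (1.99), and Il6, a cytokine gene, from 7.06 ± 1.28 to 22.2 ± 1.38 CPM (1.64). The edgeR FDRs of Mmp10, Cd44 and Il6 were 4.15e-92, 9.01e-316 and 3.62e-51. Plaur, the urokinase receptor gene, Ccnd1, the cyclin D1 gene, and Mmp3 rose by 1.28, 1.17 and 0.80 on the log2 scale (edgeR FDR 1.26e-27, 1.12e-19 and 4.38e-27). The metallothionein genes Mt2 and Mt1 fell by 2.08 and 1.52 (edgeR FDR 3.36e-124 and 9e-55), and Gja1 and Spp1 fell by 0.72 and 0.35 (edgeR FDR 2.65e-77 and 1.63e-06).

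Total counts per library were between 18952504 and 26386941. Of genes known to answer TGFβ through SMAD proteins, 6 of 6 tested were called higher, among them Smad7 with a log2 fold change of 0.89 and Ccn2 with 2.06 (edgeR FDR 5.57e-59 and 4.69e-281). The share called higher over all genes tested was 37.6%. The label of a lymphatic endothelial line was met in part. Of 7 lymphatic markers, Pdpn, Flt4 and Nrp2 were tested, at means of 342, 21.6 and 66.4 CPM in untreated libraries. Their means in treated libraries were 313, 29.3 and 88.3 CPM. Prox1, Lyve1, Ccl21a and Reln had at most 3 counts in any library. Of 8 pan-endothelial markers, Kdr, Eng and Tek were tested, at means of 11.6, 62 and 0.659 CPM in untreated libraries. Their means in treated libraries were 22.1, 143 and 0.569 CPM. Pecam1, Cdh5, Tie1, Vwf and Emcn had at most 10 counts in any library. Of 6 fibroblast and mural markers 4 were tested, with Col1a1 at 3460 ± 611 CPM in untreated and 6060 ± 530 CPM in treated libraries. Pdgfra was at 160 ± 10.5 and 57.8 ± 3.91 CPM, Pdgfrb at 44.7 ± 1.5 and 69.3 ± 2.27 CPM, and Cspg4 at 12.8 ± 2.08 and 23 ± 2.2 CPM. Dpt and Rgs5 had at most 11 counts in any library. Of 6 leukocyte markers, Cd68 was at 6.96 ± 0.863 and 15.9 ± 0.857 CPM and the other 5, Ptprc among them, had at most 3 counts in any library. Of 5 epithelial markers, Krt8 and Krt18 were tested at means of at most 1.24 CPM. The part of these markers in the results for the AP-1 genes was not tested.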

How the data were processed

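RNA sequencing of SV-LECs gave 8 libraries, 4 untreated and 4 treated with 10 ng/ml TGFβ1 for 72 h, grouped by their labels. The authors deposited raw counts of single-end reads of 75 bases per gene, as 1 table of 55471 genes. The submitters' processing notes name bcl2fastq 2.20.0.422, STAR 2.7.3a, featureCounts 1.5.1 and the build GRCm38. The annotation release and the use of strand in counting are not given in the sources used here. Without strand, reads in bases shared by overlapping genes could be counted for the wrong gene or for none.

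Analysis used edgeR 4.0.16 (R 4.3.3): filterByExpr, TMM normalization, glmFit and glmLRT, the test named in the study, with Benjamini-Hochberg FDRs over 13818 genes and a threshold of 0.05. CPM are counts scaled to the TMM-adjusted library size. For Fosl1, whose FDR underflows, the quasi-likelihood FDR is given. The pipeline was tested on counts simulated with few changed genes and a single low dispersion. That test does not cover a change this broad or genes as variable as Jund and Junb. GENCODE M21 gave exonic lengths, GC content and overlaps, and RefSeq (GRCm38.p6) gave promoters. Total counts were between 18952504 and 26386941, and 3 counts in a library correspond to between 0.113 and 0.162 CPM, which covers counting error only. No 2 libraries of a group were duplicates: chi-square per degree of freedom was between 2.37 and 7.84 over 12 pairs.

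The AP-1 genes and the other gene lists were chosen with earlier results of these data known, so no test over a list was made. The lists held older symbols (Cyr61, Mkl1, Mkl2 and Ctgf) beside the current ones (Ccn1, Mrtfa, Mrtfb and Ccn2), and each such gene was counted once, under its current symbol. One further gene, of the target and SMAD lists, is not reported here and was left out of their counts. In other lists, up to 4 called genes with the largest absolute log2 fold change in each direction were named, plus Ccnd1, Mmp3, Plaur, Egr1, Myc and Srf. Other genes were named where a result turned on them, which includes Cebpb, Cebpd, overlapping genes and markers. Alternatives were the quasi-likelihood test, DESeq2 1.42.0, its size factors, total counts, other filters, a prior count of 2, a replicate block, leaving out each library, CPM without gene length for shares, and a GC covariate added after seeing the data.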

Additional observations from a re-analysis of the deposited data

Results flagged for a closer look

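None of the 10 AP-1 genes had a library far from the other 3 of its group by Dixon's test at the 95% level. With 4 values this test has little power and cannot exclude the influence of 1 library. The call of Jun and the sign of Jund did change in some fits that left out 1 library. Over the AP-1 genes and the genes of the other lists, Dixon's test picked out 8 of 170 groups of 4 libraries, all in the other lists. Chance alone picks out about 1 in 20 groups. TGFβ1 library 4 was the lowest of its group for 4 genes. There Egr1 was at 136 CPM against 160 to 163 CPM in the other 3, Nr4a1 at 13.2 against 15 to 15.3 CPM, Nfe2l1 at 526 against 538 to 539 CPM, and Map3k1 at 7.69 against 8.32 to 8.44 CPM. Mrtfa was at 69.8 CPM in untreated library 1, against 60.9 to 61.7 CPM, and at 98.5 CPM in TGFβ1 library 2, against 106 to 107 CPM. Of the AP-1 targets, Mmp3 was at 18.4 CPM in untreated library 1, against 23.3 to 24.3 CPM, and Plaur was at 12.1 CPM in untreated library 4, against 15.8 to 16.3 CPM.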

How the results depend on the processing

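Fos, Fosb, Fosl1, Fosl2, Atf3 and Junb were called in the same direction in all 17 alternative fits, and Batf3 was called in none. Jun was called in 10 of 17 and Maff in 9 of 17. The log2 fold change of Jun was 0.3044 with DESeq2 (FDR 0.1006), 0.2293 by edgeR with total counts (FDR 0.07818), and between 0.1965 and 0.3986 by edgeR when 1 library was left out. For Maff it was -0.1704 with DESeq2 (FDR 0.05781), -0.1646 by edgeR when genes had to reach 1 CPM in 4 libraries (FDR 0.0531), and between -0.23 and -0.1347 when 1 library was left out. Jund was called lower with the GC covariate (-0.2235, edgeR FDR 0.01467), and ranged from -0.5038 to 0.1045 when 1 library was left out, turning positive without untreated library 1 (0.1045) and without TGFβ1 library 2 (0.0315). The cause of these changes was not tested. Counts of called genes over the AP-1 genes, each list and all genes stayed within 1.5 times the reported ones in every alternative. By CPM without gene length, Fosl1 took 0.7642% of the FOS family in untreated and 12.32% in treated libraries, Fosl2 97.51% and 83.56%, Jun 30.05% and 29.26% of the JUN family, and Jund 38.84% and 26.43%. Same-numbered libraries did not deviate together (r between -0.396 and -0.0505), so no pairing by number was seen. This comparison of few libraries cannot decide whether they were paired. With the replicate number as a block, Jun was at 0.2919 (edgeR FDR 0.06337) and Maff at -0.1767 (edgeR FDR 0.06119), and no other AP-1 gene changed its call. Depth was lowest for Fosb and Batf3, with at most 43 counts in any library.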
